A study of Mus musculus with 22 samples.

Results

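The genes described here are 10 markers of contractile smooth muscle and of pericytes, namely Acta2, Actg2, Myh11, Tagln, Cnn1, Mylk, Des, Pdgfrb, Rgs5 and Cspg4. They were picked by symbol with earlier results of these data known, and 15 probes measured them, of the 30146 probes for 21450 gene symbols in the table. Whole pancreas from 22 C57Bl/6 mice was profiled with TempO-Seq, in which paired probes that sit side by side on an mRNA are joined and then sequenced, so that each probe pair gives a count. TCDD (a dioxin and a ligand of the aryl hydrocarbon receptor) was given to females subcutaneously 2 times per week, at a dose of 20 ng/kg daily. Dosing began before mating and ended at birth, and control females had corn oil on the same schedule. Tissue came from 4 TCDD dams, 4 TCDD female pups, 4 TCDD male pups, 4 control dams, 3 control female pups and 3 control male pups. Each pup was taken on its day of birth, and a litter gave 1 pup of each sex. A number after a group names the dam or litter, as the labels number them.

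Smooth muscle cells ring arteries, larger veins and ducts, and they shorten when phosphorylated myosin pulls on actin filaments. Pericytes sit on capillaries inside the vessel's basement membrane and are recruited there by platelet-derived growth factor from the endothelium. Contractile smooth muscle genes are switched on by serum response factor (SRF), which binds a DNA element called the CArG box together with its partner myocardin. None of the 10 genes is exclusive to these cells: activated pancreatic stellate cells and fibroblasts also make Acta2, Tagln and Pdgfrb, and striated muscle makes Des.

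The stage labels were at odds with stage genes, so the libraries were described in 2 classes cut from expression. An adult-type library had a lower summed count of Afp, a fetal serum protein, than of Pnlip, the pancreatic lipase, and a newborn-type library the reverse. The 8 adult-type libraries had 0 to 1.25 CPM (counts-per-million) of Afp, and at least 40765 CPM of Pnlip. The 14 newborn-type libraries had 468 to 1487 CPM of Afp, and at most 91.6 CPM of Pnlip. The adult-type libraries were labelled TCDD dams 8 and 11, TCDD female pup 6, TCDD male pups 8, 10 and 11, and control dams 5 and 7. The stage label went against the class in 8 of the 22 libraries, and stage or sex genes went against the labels in 13. Since the classes were cut from these libraries' expression, the differences between them below are descriptions with no test. Totals were 11223816 to 34911410 counts per library, so that 3 counts, used as a floor, corresponded to 0.157 to 0.213 CPM in adult-type libraries and to 0.0859 to 0.267 CPM in newborn-type libraries. Floors and intervals cover counting error only.

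RefSeq promoter sequences (GRCm38.p6, 250 bases before to 50 after the start) were held for 6 of the 10 genes, namely Acta2, Cnn1, Des, Rgs5, Cspg4 and Mylk. The contractile genes are the textbook targets of SRF, so these sequences were searched for CArG boxes. Only stretches picked for holding a match are printed, from Acta2, Rgs5 and Myl9. Rgs5 is printed for its TATATA, while Cspg4 held neither TATATA nor TATAAA before the start. Capitals mark CArG boxes, or the CArG box with 1 letter of its inner run changed, in the Acta2 and Myl9 lines, and TATATA in the Rgs5 line. Myl9, the regulatory light chain of smooth muscle myosin, is not one of the 10 and stands beside them for comparison.
Acta2, chr19:34255438-34255467, minus strand: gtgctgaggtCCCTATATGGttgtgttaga
Acta2, chr19:34255388-34255417, minus strand: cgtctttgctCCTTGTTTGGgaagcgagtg
Myl9, chr2:156775289-156775388, plus strand: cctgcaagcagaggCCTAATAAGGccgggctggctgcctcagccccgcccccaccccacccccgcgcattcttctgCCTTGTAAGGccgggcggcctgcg
Rgs5, chr1:169655371-169655500, plus strand: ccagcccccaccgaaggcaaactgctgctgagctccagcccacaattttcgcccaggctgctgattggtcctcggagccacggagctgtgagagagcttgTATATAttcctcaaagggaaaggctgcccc

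The capitals in Acta2 began 84 and 34 bases before the start given in the table, and both matched the CArG box with 1 letter changed. In Myl9 they began 161 and 99 bases before the start, the first an exact CArG box and the second with 1 letter changed. The CArG pattern reads the same on both strands, overlapping matches were allowed, and 1.63% of the 32851 promoters in the table held an exact one, while 9.98% held one when 1 changed letter was allowed. The windows of Cnn1, Des, Rgs5, Cspg4 and Mylk held no match of either kind, and that of Srf itself held 2 exact boxes. TATATA or TATAAA, read on the gene's strand, lay before the start in 11.5% of promoters, and in Rgs5 it began 30 bases before it. These matches describe the letters of the windows and do not show that a factor bound there.

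All 10 genes had a lower mean CPM in adult-type than in newborn-type libraries, with log2 ratios of class means, adult type over newborn type, of -5.38 to -2.50 and a median of -4.02. In 9 of the 10 genes the classes did not overlap on their main probe, the probe with the highest mean. The same held, adult type lower, in 39.5% of all 21450 genes (13 of the 15 member probes, beside 38.3% of all probes), and in 74.5% of the 11019 genes with a median of at least 1 CPM in a class, so a count of this kind is read against a high background. The median log2 ratio was -1.91 on the same scale over 10734 genes, those with a median above 0 in both classes and at least 1 CPM in one. On TMM-scaled CPM, which divides each library by a factor set from the bulk of its genes, the median of the 10 genes was -2.21 against -0.03 for those 10734 genes. On that scale the ranges were apart in 4 genes (Tagln, Des, Cspg4 and Mylk), beside 7.04% of all 21450 genes. That share includes genes with hardly any counts, and the share among genes of at least 1 CPM was not taken on the TMM scale. The share of counts held by the top 20 probes was 69.8 to 74.7% in adult-type libraries and 47.1 to 59.6% in newborn-type libraries. TMM factors were 0.355 to 0.576 in adult-type and 1.22 to 1.88 in newborn-type libraries. In bulk tissue, fewer cells of a type and less RNA per cell cannot be told apart.

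**Figure D1:**
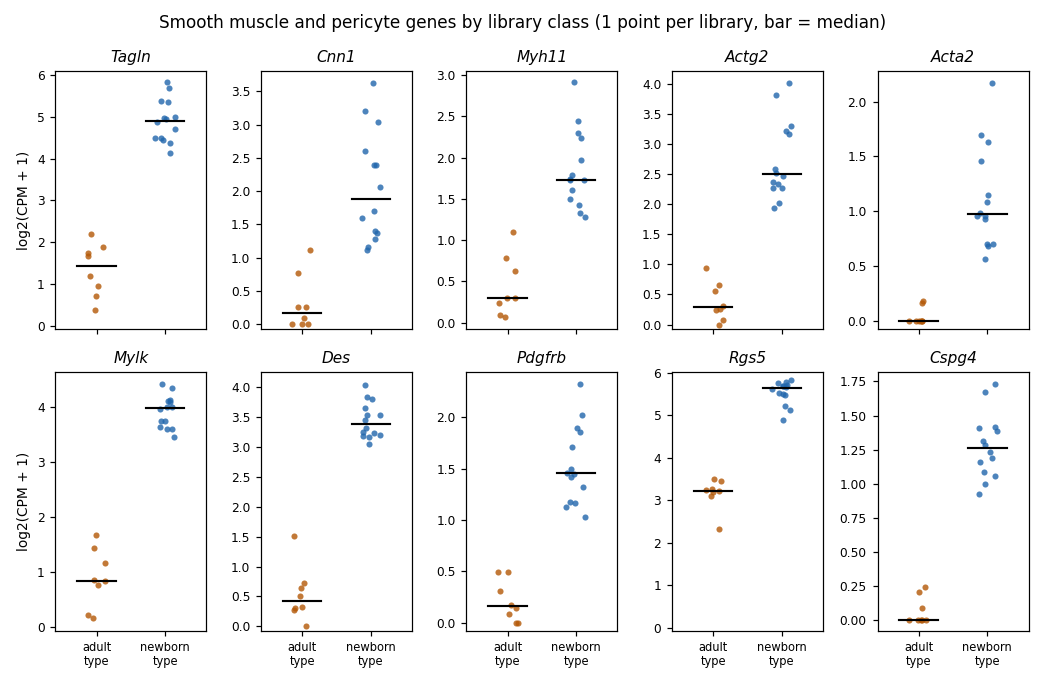
Each panel plots 1 gene's main probe as log2(CPM + 1), with 1 point for each of the 8 adult-type and 14 newborn-type libraries and a bar at the class median. The classes are apart in 9 panels, and in Cnn1 the highest adult-type library, at 1.162 CPM, reached past the lowest newborn-type library, at 1.158 CPM.

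Acta2 encodes smooth muscle alpha-actin, the actin of vascular smooth muscle. It had 0 counts in 6 of the 8 adult-type libraries and at most 0.130 CPM in the other two, against 0.474, 0.960 and 3.52 CPM as the lowest, median and highest of newborn-type libraries. The adult-type counts came to 4 in all, and the log2 ratio of class means was -5.38. Of the 10734 genes, 1.39% had a lower ratio. Acta2 is not one of them, since its adult-type median is 0, and other genes with such a median are left out of that share too. Levels of Acta2 stayed low in newborn-type libraries too, with 1 probe whose counting error alone gives a coefficient of variation (CV) of 22.2%. Probe efficiencies differ and the actin genes are near-identical, so levels are not compared between genes and the split between actins is uncertain.

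Actg2 encodes gamma-2 actin, the actin of visceral (enteric) smooth muscle. Adult-type libraries had 0, 0.220 and 0.924 CPM as lowest, median and highest, and newborn-type libraries had 2.85, 4.64 and 15.2 CPM. The log2 ratio was -4.27 on this probe and -4.80 on the second, whose adult-type counts came to 7. Myh11 encodes the smooth muscle myosin heavy chain, the marker held to be most restricted to this lineage. It had 0.0522, 0.234 and 1.137 CPM in adult-type libraries, against 1.42, 2.33 and 6.53 CPM in newborn-type libraries, with a log2 ratio of -2.83. The gap between the classes was narrow for Myh11, lying between control dam 7, at 1.137 CPM, and TCDD female pup 10, at 1.42 CPM. On the TMM scale the classes overlapped with a log2 ratio of -0.998.

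Tagln encodes transgelin (SM22), an actin-binding protein that comes on early in smooth muscle. Adult-type libraries had 0.313, 1.75 and 3.55 CPM, and newborn-type libraries had 16.4, 29.1 and 55.8 CPM, a log2 ratio of -4.14. The second probe gave -3.91, and both stayed apart on the TMM scale. Pooled over libraries the newborn-type over adult-type ratio was 18.01, with an exact 95% interval of 15.8 to 20.7 from counting error. Cnn1 encodes calponin, which restrains actin-activated myosin. Its 3 probes gave log2 ratios of -3.75, -4.01 and -2.92, and the main probe had 0, 0.126 and 1.16 CPM in adult-type libraries, against 1.16, 2.71 and 11.4 CPM in newborn-type libraries. Cnn1 was the single member whose main probe overlapped, through TCDD dam 8 among adult-type libraries and control male pup 2 among newborn-type libraries.

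Mylk encodes myosin light chain kinase, the enzyme that phosphorylates the light chain and starts contraction. Adult-type libraries had 0.119, 0.781 and 2.18 CPM, against 9.99, 14.7 and 20.3 CPM in newborn-type libraries, with log2 ratios of -3.91 and -4.57 on its 2 probes. Des encodes desmin, the intermediate filament of muscle cells and of many pericytes and stellate cells. It had 0, 0.336 and 1.85 CPM in adult-type libraries, against 7.30, 9.496 and 15.5 CPM in newborn-type libraries, a log2 ratio of -4.28. Among newborn-type libraries the highest was 2.03 times the lowest for Mylk and 2.13 times for Des, and on CPM every adult-type library lay well below this range. On the TMM scale the highest adult-type and lowest newborn-type values were closer, at 3.49 and 4.39 for Des and 3.79 and 6.31 for Mylk. The second Mylk probe overlapped there, at 0.670 and 0.669.

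Among the pericyte genes, Pdgfrb encodes the receptor through which endothelial PDGF-B recruits these cells. It had 0, 0.117 and 0.413 CPM in adult-type libraries, against 1.04, 1.74 and 3.99 CPM in newborn-type libraries, a log2 ratio of -3.55. Cspg4 encodes the NG2 proteoglycan of the pericyte surface, and had 0 counts in 5 adult-type libraries and 0.183 CPM at most, against 0.901, 1.39 and 2.32 CPM in newborn-type libraries. Its log2 ratio of -4.84 rests on 7 adult-type counts. Rgs5 encodes a regulator of G-protein signalling that shortens vasoconstrictor signals and marks pericytes. It had 3.98, 8.33 and 10.4 CPM in adult-type libraries, against 28.4, 48.6 and 55.9 CPM in newborn-type libraries, a log2 ratio of -2.50. Rgs5 thus had the ratio nearest 0 of the 10 genes on CPM. On the TMM scale its log2 ratio was -0.60 and the classes overlapped, with 10.1 to 23.7 TMM-scaled CPM in adult-type and 22.1 to 34.4 in newborn-type libraries.

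A ratio of members within a library does not depend on the scaling. The sum of the 6 contractile genes divided by the sum of Pdgfrb, Rgs5 and Cspg4 was 0.0663 to 0.974 in adult-type libraries and 0.802 to 1.93 in newborn-type libraries. It was thus lower in adult-type libraries with an overlap between control dam 7 and the newborn-type libraries with the lowest ratios, control female pup 2, control male pup 2 and control dam 2. The contractile sum itself was 0.574 to 8.03 CPM in adult-type and 34.97 to 109.3 CPM in newborn-type libraries, and the pericyte sum was 4.22 to 10.8 CPM in adult-type and 31.1 to 61.2 CPM in newborn-type libraries. Rgs5 makes up most of the pericyte sum, and Tagln and Mylk most of the contractile sum, so the ratio mainly sets these genes against each other. It does not speak for all pericyte genes. The log2 ratios of Pdgfrb and Cspg4, -3.55 and -4.84, lay within those of the 6 contractile genes, -5.38 (Acta2) to -2.83 (Myh11).

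Other genes of the contractile apparatus were read from a list of 28, all measured. In 16 of them adult-type libraries lay below newborn-type libraries with no overlap, in none above, and 24 had a lower median in adult-type libraries. The 16 make 57.1% of the list, beside 39.5% of all genes. Only 19 of the 28 had a median of at least 1 CPM in a class. The 57.1% is therefore not on the footing of the 74.5% of genes with such a median, and the list's share among them was not taken. The largest ratios by class median were those of Pdlim7, Pdlim3, Tpm2, Myl9, Cnn2 and Pgm5. Tpm2, a tropomyosin that lies along the actin filament, had 0.465, 1.36 and 2.91 CPM in adult-type libraries and 25.1, 34.9 and 56.4 CPM in newborn-type libraries. Myl9 had 0.576, 1.48 and 3.24 CPM in adult-type libraries and 21.5, 34.7 and 59.1 CPM in newborn-type libraries. Some genes of this list stayed near the floor in both classes. Lmod1, leiomodin, reached 0.192 CPM in adult-type and 0.349 CPM in newborn-type libraries, and Pln, which encodes the calcium pump inhibitor phospholamban, had 0 counts in all adult-type libraries and at most 0.302 CPM in newborn-type libraries. Lmod1 and Pln were picked after their values were seen.

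Of 15 measured genes for the transcriptional control of smooth muscle, 9 were lower in adult-type libraries with no overlap. That is 60%, beside 39.5% of all genes. Only 9 of the 15 had a median of at least 1 CPM, so the 60% is not on the footing of the 74.5%. Myocd, which encodes the SRF partner myocardin, had 12 counts in all in adult-type libraries and 13 in newborn-type libraries, with highest values of 0.349 CPM in adult-type and 0.210 CPM in newborn-type libraries, so no direction was detectable at this depth. Srf had 1.17, 1.58 and 1.92 CPM in adult-type libraries against 2.04, 3.25 and 6.199 CPM in newborn-type libraries, a log2 ratio of means of -1.18, which is nearer 0 than the median of -1.91 over the 10734 genes. The Notch targets Hey1 and Heyl had log2 ratios of -3.07 and -3.08. Klf4, Tead1, Mkl1 (an actin-regulated SRF cofactor) and Gata6 had log2 ratios between -2.90 and -2.19, and none of these 6 genes overlapped between classes.

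The pericyte list held 22 measured genes, of which 13 were lower in adult-type libraries with no overlap. This share of 59.1% stands beside the 39.5% of all genes. Only 15 of the 22 had a median of at least 1 CPM, so it is not on the footing of the 74.5%. Postn and Aspn, secreted matrix proteins that fibroblasts make too, had the most extreme values. Postn, periostin, had 0.349, 2.96 and 5.76 CPM in adult-type libraries and 464, 649 and 798 CPM in newborn-type libraries. Kcnj8, a subunit of the pericyte's ATP-sensitive potassium channel, had 0.512 to 1.30 CPM in adult-type and 14.6 to 26.2 CPM in newborn-type libraries, whereas its partner subunit Abcc9 had 0 counts in adult-type and 2 in newborn-type libraries. Gucy1a1, a subunit of the nitric oxide receptor, and Mcam, an adhesion molecule of the vessel wall, had log2 ratios of -4.72 and -5.08, and Tbx2, a T-box factor, had -4.50. Notch3, the Notch receptor of vascular smooth muscle and pericytes, had 0 to 0.174 CPM in adult-type libraries, near the floor, and 0, 0.455 and 0.996 CPM in newborn-type libraries. Abcc9 was at or under the floor in all 22 libraries. Log2 ratios of class medians were taken of genes with a median of at least 1 CPM in a class and a median above 0 in both, which leaves out members near the floor. Their median was -3.79 over 15 of the 22 pericyte genes, against -2.87 over 19 of the 28 contractile genes, -2.39 over 9 of the 15 transcription genes and -1.98 over the 10734 genes.

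Of 21 receptors and ligands that act on these cells, 14 were lower in adult-type libraries with no overlap. This share of 66.7% also stands beside the 39.5% of all genes. Only 14 of the 21 had a median of at least 1 CPM, so it is not on the footing of the 74.5% either. Ednra, the endothelin receptor that constricts vessels, had 0, 0.130 and 0.590 CPM in adult-type libraries and 4.40, 6.93 and 9.93 CPM in newborn-type libraries. Agtr1a, the angiotensin receptor, Ednrb, the second endothelin receptor, Pdgfra, the PDGF receptor of fibroblasts, its ligand gene Pdgfc and Tgfb2 had log2 ratios of -4.09 to -3.80. Pdgfb, whose product recruits pericytes, overlapped between classes, with 0.0640, 0.248 and 0.856 CPM in adult-type and 0.311, 0.652 and 1.51 CPM in newborn-type libraries.

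Markers of other cell types were read in the same libraries. Of 13 measured stellate cell and fibroblast markers, 12 (92.3%) were lower in adult-type libraries with no overlap, beside 39.5% of all genes. The sum of the 13 was 54.1 to 118 CPM in adult-type and 1328 to 2068 CPM in newborn-type libraries. The exception was Nes, with 9.30 to 19.9 CPM in adult-type and 6.13 to 15.3 CPM in newborn-type libraries. Of 10 endothelial markers 7 were apart in this way, a share near the 74.5% of genes with a median of at least 1 CPM, with sums of 9.39 to 37.3 CPM in adult-type and 69.8 to 148 CPM in newborn-type libraries, and of 5 mesothelial markers all 5, with sums of 1.41 to 18.3 CPM in adult-type and 93.5 to 197 CPM in newborn-type libraries. The median log2 ratio of class medians, by the same filter, was -4.70 over all 13 stellate cell and fibroblast markers, -4.20 over all 5 mesothelial and -2.70 over 9 of the 10 endothelial markers, against -1.98 over the 10734 genes. The part of each of these cell types in the values of Acta2, Tagln, Des and Pdgfrb was not tested.

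Muscle and gut markers were read in the same way, beside the same 39.5% of all genes. A median of at least 1 CPM was reached by 5 of 12 skeletal, 1 of 6 cardiac and 3 of 6 intestinal markers. Their counts are therefore not on the footing of the 74.5%. Of 12 skeletal muscle markers 2 were lower in adult-type libraries with no overlap (Acta1 and Mylpf), Mb had 0 counts in every newborn-type library, and the sum was 1.15 to 6.90 CPM in adult-type and 16.2 to 65.2 CPM in newborn-type libraries. Of 6 cardiac markers 0 were apart, Myh6 had 0 counts in every newborn-type library, and the sum was at most 1.19 CPM in adult-type and 2.57 CPM in newborn-type libraries. Of 6 intestinal markers 3 were apart (Vil1, Fabp2 and Apoa4), with sums of 0.313 to 1.60 CPM in adult-type and 34.3 to 687 CPM in newborn-type libraries. The gut-restricted factor gene Cdx2 and the mucin gene Muc2 stayed at or below 0.524 CPM in every library of either class. The part of attached gut in the contractile genes was not tested beyond leaving out the library with the highest intestinal sum, given below.

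Of 6 nerve and glia markers, 4 (66.7%) were lower in adult-type libraries with no overlap, beside 39.5% of all genes. Only 4 of the 6 had a median of at least 1 CPM, so the 66.7% is not on the footing of the 74.5%. Their sums were 0.130 to 0.9504 CPM in adult-type and 9.66 to 19.6 CPM in newborn-type libraries. Of 6 adipocyte markers and 7 markers of lymph node and spleen 0 were apart. The adipocyte sum was 4.94 to 72.4 CPM in adult-type and 18.8 to 32.9 CPM in newborn-type libraries, and the lymph node and spleen sum was 0.0640 to 41.9 CPM in adult-type and 4.28 to 17.5 CPM in newborn-type libraries. Of 12 acinar markers, 5 were higher in adult-type libraries with no overlap and 1 lower, beside 0.247% of all genes that were higher in adult-type libraries in this way. Their sum was 183509 to 207305 CPM in adult-type and 96740 to 131626 CPM in newborn-type libraries.

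The 10 genes varied to different degrees within the newborn-type libraries. The CV over the 14 libraries was 79.2% for Cnn1, 65.6% for Acta2, 60.03% for Actg2, 50.03% for Myh11 and 38.6% for Tagln, against counting errors of 12.7%, 22.2%, 9.99%, 15.2% and 4.58%. It was 42.4% for Pdgfrb, 28.7% for Cspg4, 24.0% for Des, 21.8% for Mylk and 17.7% for Rgs5, with counting errors of 18.2%, 21.5%, 8.03%, 6.76% and 3.80%. The spread of Cspg4 was thus little above its counting error. Among 7156 genes with a median of at least 5 CPM in newborn-type libraries, the median CV was 17.7%, and 98.7% of them had a lower CV than Tagln, 83.0% than Des, 74.1% than Mylk and 50.04% than Rgs5.

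The libraries with high contractile sums carried different labels. Control male pup 4 had 109.3 CPM, TCDD female pup 11 had 87.2 CPM, TCDD dam 6 had 81.6 CPM, TCDD female pup 8 had 75.5 CPM and control female pup 7 had 70.3 CPM. The other 9 libraries had 34.97 to 55.9 CPM, the lowest being control dam 4. Control male pup 4 also had the highest intestinal sum, 687 CPM, and control female pup 7 had an intestinal sum of 43.5 CPM, near the low end. Actg2 and Acta2 were not highest in the same libraries. Actg2 was at 15.2 and 13.2 CPM in control male pup 4 and control female pup 7, and at most 8.87 CPM elsewhere. Acta2 was highest in TCDD female pup 8, at 3.52 CPM, and was 1.21 CPM in control male pup 4 and 0.624 CPM in control female pup 7.

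**Figure D2:**
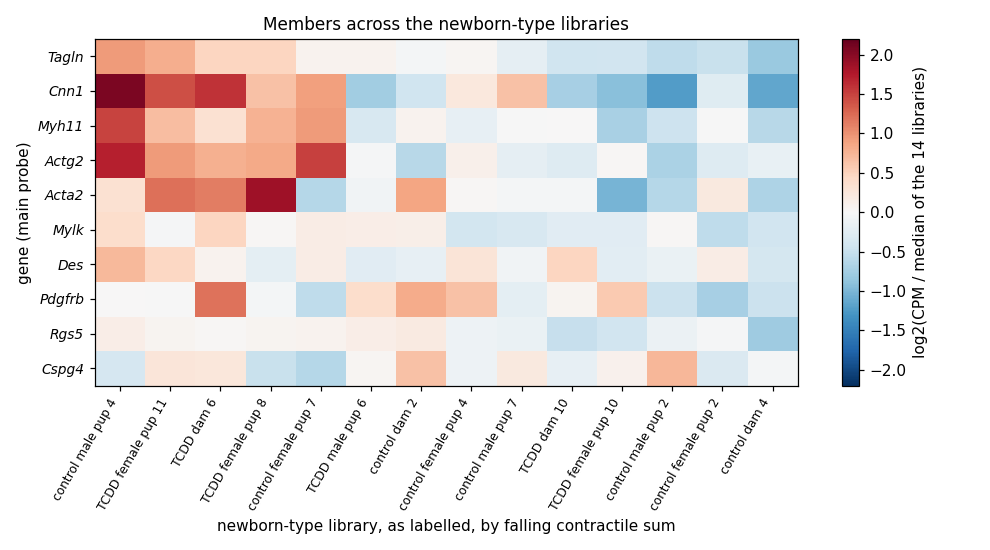
Rows are the main probes of the 10 genes and columns the 14 newborn-type libraries as labelled, ordered by falling contractile sum, with colour giving log2 of CPM over that gene's median in these libraries. The 5 libraries on the left are high in Cnn1, Actg2 and Myh11, 4 of them also in Tagln, while Rgs5 varies little except in TCDD dam 10, TCDD female pup 10 and control dam 4, where it is lower.

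Pairs of genes were compared over the 14 newborn-type libraries, on log2(TMM-scaled CPM + 1), in 45 pairs. All 15 pairs of contractile genes had a positive Pearson r, with a median of 0.55 and a range of 0.01 to 0.90, whereas 10 of 18 pairs of a contractile with a pericyte gene were positive, with a median of 0.05, and 1 of the 3 pairs among Pdgfrb, Rgs5 and Cspg4, with a median of -0.25. By a two-sided permutation test with Benjamini-Hochberg adjustment over the 45 pairs, 6 passed 0.05 on r and 5 of these on Spearman's rho as well. All lay within the 4 genes Tagln, Cnn1, Myh11 and Actg2. Pairs of other genes were not counted in these libraries, so these counts are not shown to be particular to the 10 genes. Tagln with Cnn1 had r of 0.90 and rho of 0.81 (permutation p 8e-05 and 0.00077, adjusted p 0.0027 and 0.0173). Myh11 with Cnn1 had r of 0.84 and rho of 0.89 (permutation p 0.00028 and 6e-05, adjusted p 0.00315 and 0.0027).

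The other passing pairs had r of 0.80 to 0.88. Myh11 with Actg2 had r of 0.88 and rho of 0.67 (permutation p 0.00012 and 0.0101, adjusted p 0.0027 and 0.0758), so it did not pass on rho. Cnn1 with Actg2 had r of 0.82 and rho of 0.72 (permutation p 0.00026 and 0.00455, adjusted p 0.00315 and 0.041). Myh11 with Tagln had r of 0.81 and rho of 0.74 (permutation p 0.00099 and 0.00329, adjusted p 0.00891 and 0.037), and Tagln with Actg2 had r of 0.80 and rho of 0.79 (permutation p 0.00127 and 0.0012, adjusted p 0.00953 and 0.018). After the 2 libraries farthest from the median of the first gene were left out, these 6 pairs had r of 0.64 to 0.80. Without control male pup 4, the library with the most intestinal markers, 14 of 15 contractile pairs were positive with a median r of 0.53. On CPM of the library total the contractile pairs had a median r of 0.67, and all 45 pairs a median of 0.42, against 0.20 on the TMM scale. On CPM, 11 of the 18 pairs of a contractile with a pericyte gene were positive, with a median of 0.23. All 3 pairs among Pdgfrb, Rgs5 and Cspg4 were positive on CPM, with a median of 0.21, so their sign depended on the scaling. The points share library depth and composition. The permutation treated the libraries as independent, though by the labels some share a litter and TCDD and control libraries were pooled.

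Acta2 had r of 0.55 and rho of 0.64 with Tagln, r of 0.44 and rho of 0.65 with Cnn1, r of 0.36 and rho of 0.60 with Myh11, and r of 0.20 and rho of 0.27 with Actg2. None of these 4 pairs passed after adjustment. Cspg4 ran the other way, at r of -0.63 with Actg2 (permutation p 0.0158) and -0.56 with Myh11 (permutation p 0.0371), neither of which passed after adjustment. Over the 8 adult-type libraries none of 45 pairs passed by the exact permutation test after adjustment. The highest there was Myh11 with Des, at r of 0.82 and rho of 0.74 (exact permutation p 0.00831 and 0.0458, adjusted p 0.245 and 0.294), and r was 0.52 without the 2 farthest libraries.

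**Figure D3:**
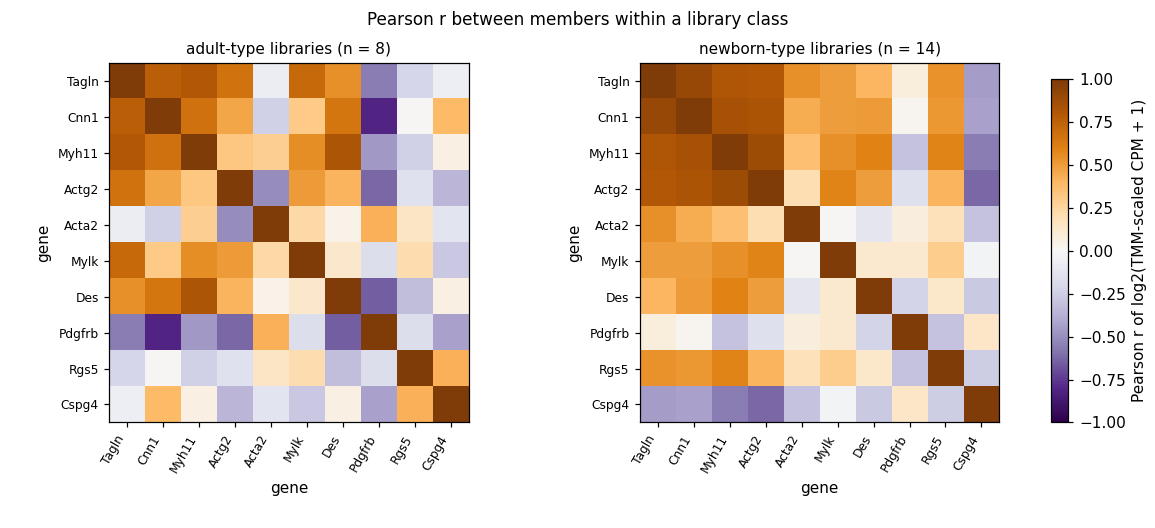
Each square gives Pearson's r between the main probes of 2 genes, on log2(TMM-scaled CPM + 1), over the 8 adult-type libraries on the left and the 14 newborn-type libraries on the right. On the right the block of Tagln, Cnn1, Myh11 and Actg2 is the darkest, with r of 0.80 to 0.90, and the row of Cspg4 is mostly below 0.

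The genes most like the 10 were taken as those with the highest Pearson r with the mean z-score of their main probes over newborn-type libraries, out of 7152 other genes with a median of at least 5 CPM. They were Pnp (r of 0.84), Vwf (0.82), Ssbp4 (0.81), Fam43a (0.81), Cxcl12 (0.80), Myl9 (0.78), Ehbp1l1 (0.76), Lmo2 (0.76), Gvin1 (0.74) and Ptprc (0.73), each over 14 libraries. Vwf encodes von Willebrand factor of endothelium, Ptprc the CD45 antigen of leukocytes and Cxcl12 a stromal chemokine. Over the 8 adult-type libraries, with 3448 candidates, they were Ablim1 (r of 0.94), Usp32 (0.91), Pole4 (0.87), Brd9 (0.85), Lbr (0.84), Rmi1 (0.83), Zfp809 (0.83), Jrkl (0.83), Zc3h11a (0.83) and Cpd (0.82). The 2 lists shared no gene, and r is given as a measure of likeness with no test.

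The study set TCDD against corn oil, and TCDD and control below are as labelled. Stage or sex genes went against the labels in 13 of the 22 libraries. Whether the chemical labels hold was not tested, so the fold changes compare labels and may not compare exposures. No probe of any gene passed the adjusted threshold of 0.05 in edgeR's quasi-likelihood test with Benjamini-Hochberg adjustment, in any of 7 comparisons, so 0.0% of probes were called and 0 of the member probes. With class as a term and all 22 libraries, 419 of 19209 probes had an unadjusted p under 0.05, and 0 of the 15 member probes. Log2 fold changes, TCDD over control, were -0.60 to 0.50 for the 10 main probes with a median of -0.16, against -0.0029 for all probes tested. DESeq2 and limma-voom called 0 probes in this comparison as well, and leaving out control dam 5 or TCDD dam 8 gave 1 call. Replicates were separate animals.

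In newborn-type libraries (6 TCDD, 8 control) 0 of 17109 probes were called, 554 had an unadjusted p under 0.05 and none of the 15 member probes did. Acta2 had 0.474, 1.52 and 3.52 CPM in TCDD libraries and 0.602, 0.959 and 1.75 CPM in control libraries, a log2 fold change of 0.65 ± 0.35 (SE; edgeR adjusted p 0.99997). Without TCDD female pup 8 it was 0.32. Rgs5 had 34.0, 50.03 and 53.5 CPM in TCDD libraries and 28.4, 46.4 and 55.9 CPM in control libraries, with -0.17 ± 0.09 (edgeR adjusted p 0.99997). The 2 groups overlapped in both genes and in each of the other 8, while 0.00466% of all genes were apart with TCDD lower and 0.159% with TCDD higher. Mylk had the value nearest 0, with a log2 fold change of -0.03 ± 0.13. DESeq2 and limma-voom also called 0.

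**Figure D4:**
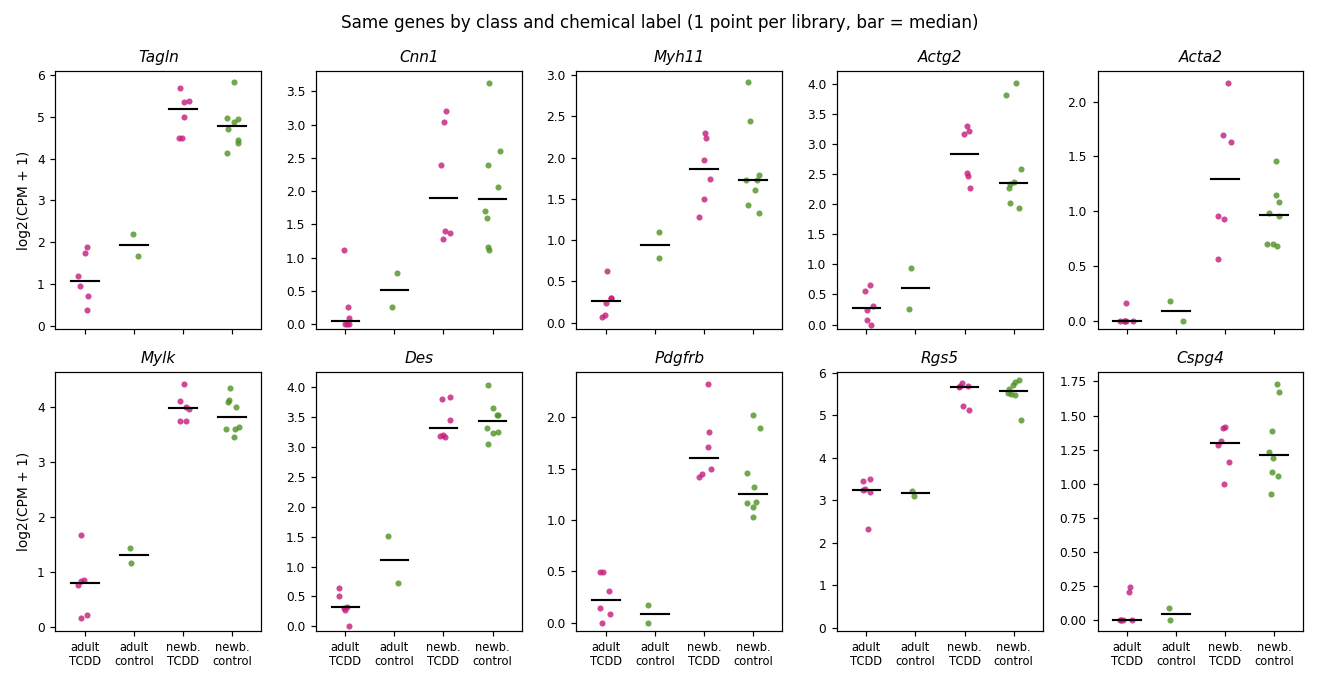
Each panel plots 1 gene's main probe as log2(CPM + 1), with 1 point per library and a bar at the median, for adult-type TCDD (6), adult-type control (2), newborn-type TCDD (6) and newborn-type control (8) libraries. TCDD and control points overlap in all 10 newborn-type panels, and in the adult-type panels of Myh11 and Des both control libraries lie above the 6 TCDD libraries.

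In adult-type libraries (6 TCDD, 2 control) 7 member probes of 6 genes passed the low-count filter, 0 of 13513 probes were called and 388 had an unadjusted p under 0.05, among them Myh11 and Des. Myh11 had 0.0522, 0.205 and 0.550 CPM in TCDD libraries, against 0.716 and 1.137 CPM in the control libraries. The log2 fold change was -1.90 ± 0.82 (SE; unadjusted p 0.0357, edgeR adjusted p 0.999965). Des had 0, 0.244 and 0.550 CPM in TCDD libraries, against 0.651 and 1.85 CPM in the control libraries, with -1.90 ± 0.84 (unadjusted p 0.0404, edgeR adjusted p 0.999965). Without control dam 7 the value for Des was -1.17. In both genes every TCDD library lay below the control libraries, dams 5 and 7, but on few counts. Both control libraries were labelled dams, while the TCDD libraries were labelled 2 dams, 1 female pup and 3 male pups. Chemical and stage labels can therefore be told apart only in part here. Myh11 had 1 to 9 counts in TCDD libraries, against 11 in control dam 5 and 16 in control dam 7. Des had 0 to 9 counts in TCDD libraries, against 10 and 26 in the same control dams. Ranges were apart with TCDD lower in 2 of the 10 genes and 2.71% of all genes, and with TCDD higher in 0 of the 10 and 0.671% of all genes. The other 4 tested genes had log2 fold changes of -0.97 (Tagln), -0.87 (Mylk), -0.71 (Cnn1) and 0.17 (Rgs5). The sum of skeletal muscle markers was 1.15 to 3.80 CPM in TCDD libraries, against 6.90 and 3.34 CPM in control dams 5 and 7. The sum of lymph node and spleen markers was 0.0640 to 29.1 CPM in TCDD libraries, against 0.130 and 41.9 CPM in control dams 5 and 7. Their part in these values was not tested. DESeq2 and limma-voom called 0 probes, and without control dam 5 edgeR called 2.

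The difference between the classes in the TCDD value was tested as an interaction. None of 19209 probes passed in edgeR, with 1523 at an unadjusted p under 0.05 and 4 of the 15 member probes among them, and DESeq2 called 23 probes while limma-voom called 0. Without control dam 5 edgeR called 46 probes, without TCDD dam 8 it called 19, without control male pup 4 it called 4, without control dam 7 it called 3, and without TCDD dam 6 or TCDD male pup 11 it called 1. Des had an interaction of -1.80 ± 0.57 on the log2 scale (SE; unadjusted p 0.00358, edgeR adjusted p 0.413), which was -1.10 without control dam 7, and Myh11 one of -1.67 ± 0.71 (unadjusted p 0.0253, edgeR adjusted p 0.551). The other member probes at this level were the other 2 probes of Cnn1, while its main probe had -0.68 ± 1.35.

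As labelled, the dams and the pups of either sex mixed both classes. In dams (4 TCDD, 4 control) 0 of 15594 probes were called by edgeR, 150 had an unadjusted p under 0.05 and the median log2 fold change of 9 tested members was 0.09. In female pups (4 TCDD, 3 control) 0 of 17513 were called, 299 had an unadjusted p under 0.05 and the members' median was -0.18. DESeq2 and limma-voom called 0 in both. In male pups (4 TCDD, 3 control) 0 of 16176 were called, with 2703 at an unadjusted p under 0.05 and 6 member probes among them, and the members' median was -1.69 against -0.04 for all probes. There DESeq2 called 513 probes and limma-voom 0, and without TCDD male pup 6 edgeR called 6451. Of the libraries labelled TCDD male pup, 3 were adult type and 1 newborn type, and all 3 labelled control male pup were newborn type. Tagln, for example, had 0.313, 0.639, 1.28 and 30.8 CPM in libraries labelled TCDD male pup, the last being newborn type, against 19.7, 25.3 and 55.8 CPM in those labelled control male pup. In male pups TCDD and library class can therefore be told apart only in part.

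Genes of the wider lists gave no TCDD call either. With class as a term, the median log2 fold change was -0.04 over 20 tested genes of the contractile apparatus, 0.14 over 11 genes of smooth muscle transcription, 0.07 over 19 pericyte genes and 0.02 over 17 receptors and ligands. In each of these lists 0 genes passed edgeR's adjusted threshold and 0 had an unadjusted p under 0.05.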

How the data were processed

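RNA was extracted from whole pancreas and profiled with the TempO-Seq mouse whole transcriptome panel, per the labels' protocols. Base calls became reads through bcl2fastq 2.17.1.14, as the submitters' processing notes list; aligner and genome build: not given in the sources used here. The authors deposited raw counts per probe for 22 libraries, whole numbers with totals of 11223816 to 34911410. Counts are of reads, since the labels mention no molecular identifiers. The 10 genes and all lists were chosen with earlier results of these data known.

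CPM divides a count by the library total. The log2 scale of pairs adds 1 to TMM-scaled CPM. The named genes are the 10 members and, of each list, up to 6 with the largest log2 ratio of class medians among genes of at least 1 CPM, plus Myocd, Srf, Pdgfb and Notch3. Abcc9, Lmod1, Pln, Nes, Mb, Myh6, Acta1, Mylpf, Vil1, Fabp2, Apoa4, Cdx2 and Muc2 were named outside this rule, after their values were seen. Ratios of class means were used in place of the planned ratios of medians, because some adult-type medians are 0. Tests across all probes used R 4.3.3 with edgeR 4.0.16 (filterByExpr, TMM, glmQLFit, Benjamini-Hochberg, 0.05), with DESeq2 1.42.0 and limma 3.58.1 (voom) as alternatives. The fits were tested on simulated counts. Pairs used 100000 permutations in newborn-type libraries and every ordering in adult-type libraries (Python 3.11.15, NumPy 2.4.6, SciPy 1.17.1, pandas 2.3.3). The numbers in the labels mark shared litters, but a litter has 1 chemical, so litter cannot be fitted as a fixed block. It was fitted as a correlated block in limma, with consensus correlations of 0.0111 to 0.0706. Libraries of 1 group differed beyond sampling noise in every pair (chi-square over degrees of freedom, lowest 7.47).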

Additional observations from a re-analysis of the deposited data

Results flagged for a closer look

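A library was picked out where its gap to the nearest other library of its group was large against the range of the group. Such a gap was looked for in 63 groups of 6 or 8 libraries and found in 12. The cut is passed about 1 in 20 times by independent, normally distributed values. The 63 groups share libraries and genes and CPM is skewed, so the 12 cannot be weighed against that rate.

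In adult-type libraries, Des was 1.85 CPM in control dam 7 (next 0.651 CPM). Rgs5 was lowest in TCDD dam 11, at 3.98 CPM (next 7.62 CPM), as was the sum of Pdgfrb, Rgs5 and Cspg4, at 4.22 CPM (next 7.81 CPM). Skeletal muscle markers were 6.90 CPM in control dam 5 (next 3.80 CPM), and adipocyte markers 72.4 CPM in TCDD dam 8 (next 26.5 CPM).

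In newborn-type TCDD libraries, TCDD male pup 6 had intestinal markers at 222.9 CPM (next 115.8 CPM) and skeletal muscle markers at 53.8 CPM (next 25.7 CPM).

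In newborn-type control libraries, Tagln was 55.8 CPM in control male pup 4 (next highest 30.6 CPM) and Cnn1 was 11.4 CPM in the same library (next 5.06 CPM). The same library had intestinal markers at 687.3 CPM (next 83.6 CPM) and adipocyte markers at 28.7 CPM (next 23.4 CPM). Rgs5 was lowest in control dam 4, at 28.4 CPM (next 43.7 CPM).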

How the results depend on the processing

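The count of the 10 genes with classes apart was 9 on CPM and 4 on TMM-scaled CPM. Calls for TCDD with class as a term were 0, but 3 in the libraries whose stage label fitted the class and 2 where sex fitted too; in adult-type libraries they were 112 with no low-count filter; for the interaction 9 with no filter and 23 with DESeq2; and in male pups 513 with DESeq2. The causes were not tested. Leaving out 1 library at a time gave 0 to 1 calls with class as a term, 0 to 0 in newborn-type libraries, 0 to 2 in adult-type libraries, 0 to 46 for the interaction (46 without control dam 5, 19 without TCDD dam 8), 0 to 0 in dams and in female pups, and 0 to 6451 in male pups (without TCDD male pup 6, which leaves 3 adult-type TCDD against 3 newborn-type control libraries).

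With the replicate block (litter) in limma-voom, calls were 0 in each comparison fitted. They were 0 without the block too, so these counts cannot show whether litter matters. The litter numbers come from the same labels, which stage or sex genes went against in 13 of the 22 libraries. Member fold changes under the alternatives came to 889 values, of which 0 passed the threshold (lowest adjusted p 0.139) and 29 had the other sign. Without leaving out a library these were, for Actg2, 0.0058 (voom) and 0.0085 (replicate block) with class as a term and 0.0516 and 0.0529 in newborn-type libraries; for Tagln, 0.0823 and 0.0854 with class as a term; for Cnn1, 0.0731 (voom), 0.0764 (replicate block) and 0.0671 (probes summed) in newborn-type libraries and 0.677 in adult-type libraries with a fitting stage label; and for Rgs5, -0.187 in adult-type libraries with a fitting stage label. Leaving out 1 library, fold changes spanned 0 for Acta2 (-5.23 to 2.38) and Actg2 (-1.43 to 0.45) in the interaction, for Cnn1 in the interaction (-2.94 to 0.28), with class as a term (-0.44 to 0.19), in adult-type (-1.26 to 0.27) and in newborn-type libraries (-0.36 to 0.40), for Tagln with class as a term (-0.24 to 0.041) and in newborn-type libraries (-0.035 to 0.32), and in newborn-type libraries for Actg2 (-0.30 to 0.12), Myh11 (-0.38 to 0.025) and Mylk (-0.10 to 0.052). The median r of the 45 newborn-type pairs was 0.20, and 0.42 on CPM, 0.17 without the 2 farthest libraries and 0.17 without control male pup 4. Adult-type values of Acta2 and Cspg4 rest on 4 and 7 counts, and 2 adult-type control libraries limit that comparison.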
